A study of Homo sapiens with 2 samples.

Results

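CD40 is the receptor through which helper T cells activate B cells, and the TRAF proteins are the adaptors that carry its signal into the cell. The genes described here are CD40, TRAF1 to TRAF6, the cellular inhibitor of apoptosis genes BIRC2 and BIRC3, and MAP3K14. They were chosen by name, with earlier results of these data known. Every probe set was taken whose annotation gave exactly 1 gene symbol, if that symbol was on the list. The rule found 13 probe sets of 8 genes, out of the 36289 probe sets and 16716 named genes in the values used here. Counts and shares below refer to these, and any other probe sets of the array were not analysed. TRAF2 and BIRC3, the other 2 of the 10 genes on the list, had no probe set named in the annotation used and were not analysed here.

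Messenger RNA was measured in GM06690, a human lymphoblastoid line, which is a B-cell culture made to grow without limit by Epstein-Barr virus (EBV). All samples form 1 group of 2 replicates with no added treatment, cultured in RPMI1640 with 15% fetal calf serum, antibiotics and 2 mM L-glutamine. The growth protocol spells the line GM06990. Each replicate was hybridised to 1 Affymetrix Human Genome U133 Plus 2.0 array. The labels do not say whether the replicates were grown apart, so their spread may be only technical. With 1 group there was no contrast to test, and the comparisons were with a background level and between the arrays.

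In background terms, CD40 has no enzyme activity of its own. When its ligand brings receptors together, TRAF proteins dock on its tail and recruit ubiquitin ligases and kinases. In a resting cell, TRAF3 together with TRAF2 and the cellular inhibitors of apoptosis marks the kinase NIK, the product of MAP3K14, for degradation. Once the receptor captures TRAF3, NIK accumulates and starts the non-canonical NF-kB pathway, while TRAF6 and TRAF2 feed the canonical one. The EBV membrane protein LMP1 binds the same adaptors without any ligand and so imitates a CD40 receptor that is always on. Its own transcript was not analysed here.

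Values are log2 RMA signals, and errors are the SD of the 2 arrays (n = 2). A gene, read by the brightest of its probe sets, was called above background when it exceeded on both arrays the 95th percentile of 75 genes known from other tissues such as liver, brain and muscle, which was 5.99 in replicate 1 and 5.94 in replicate 2. By this rule 50.2% of the 16716 genes and 45.4% of the 29493 probe sets with 1 gene symbol were above background. The labelled cell type was checked against markers: 8 of 8 measured B-cell markers were above background, such as MS4A1 and PAX5, against 3 of 34 markers of other cell types (COL1A1, CDH1 and PECAM1), with none among those of T cells, NK cells and myeloid cells. Probes differ in affinity, so calls rest on the background level and on the same probe set on the other array. Medians over lists and ranges over the probe sets of a gene also carry differences in probe affinity and are given as descriptions alone. In a bulk culture, a smaller number of expressing cells and less RNA per cell cannot be told apart.

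All 8 measured members were above background on both arrays, against the 50.2% of all genes, and 12 of their 13 probe sets were, against 45.4% of probe sets. As a description, the median signal was 9.08 over the 8 members and 6.10 over all genes. The probe set not above background was 1 of the pair for TRAF5. With the 99th percentile in place of the 95th the level rose to 10.53 and 10.61, between the reference genes MBP (10.33) and KRT10 (11.24). There 2 of 8 members, TRAF1 and BIRC2, were above it, against 10.9% of all genes and 8.1% of probe sets. With MBP and KRT10 left out, an alternative chosen after seeing the data, the 99th percentile was 6.42 and 6.39, which all 8 members and 47.5% of all genes exceeded. The count was also 8 of 8 at the 75th percentile (62.4% of all genes), in either array alone (50.9%), with the mean of all probe sets (47.9%) and without probe sets ending in _x_at and _s_at (45.6%).

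**Figure D1:**
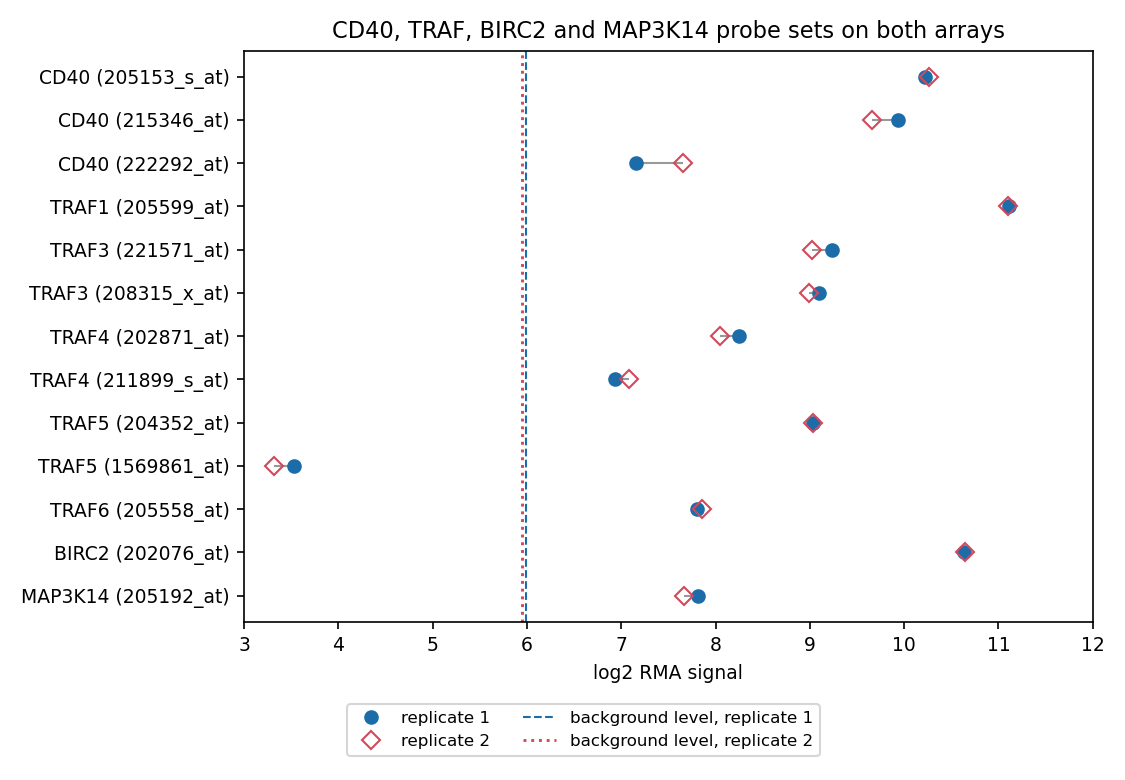
Log2 RMA signal (horizontal axis) of the 13 probe sets in replicate 1 (filled circles) and replicate 2 (open diamonds), with each array's background level as a vertical line. A TRAF5 probe set (3.53 and 3.32) is the 1 that lies left of the lines, and CD40 probe set 222292_at (7.16 and 7.65) has the widest gap between the arrays.

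CD40, the receptor itself, had 3 probe sets, all above background. Probe set 205153_s_at read 10.22 in replicate 1 and 10.26 in replicate 2 (10.24 ± 0.03). Probe set 215346_at read 9.93 and 9.65 (9.79 ± 0.20), and 222292_at read 7.16 and 7.65 (7.41 ± 0.35). The brightest probe set was nearly level between the arrays, whereas the others moved in opposite directions, by -0.28 and 0.50 (replicate 2 minus replicate 1). Of the probe sets above background, 5.91% differed by more than 215346_at and 0.740% by more than 222292_at. The 3 probe sets thus shared no direction of difference. The range over the 3 probe sets was 2.84, beside a median range of 3.14 over the 1281 genes above background with as many probe sets.

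TRAF1 is an adaptor without the RING ubiquitin ligase domain of its relatives, known as a gene that NF-kB and EBV induce in B cells. Its 1 probe set, 205599_at, read 11.12 in replicate 1 and 11.10 in replicate 2 (11.11 ± 0.01). In linear units these were intensities of 2220 and 2192, where the background level stood at 63.4 and 61.5. The difference between the arrays was -0.02, and 85.5% of the probe sets above background differed by more.

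TRAF3 is the adaptor that holds NIK down in an unstimulated cell and that CD40 and LMP1 both bind. Its probe sets read 9.24 and 9.03 (221571_at, 9.13 ± 0.15) and 9.10 and 8.99 (208315_x_at, 9.05 ± 0.07). Both probe sets gave nearly the same signal, with a range of 0.088. Of the 2431 genes above background with 2 probe sets, 97.2% had a wider range, with a median of 1.73. Both were also lower in replicate 2, by 0.21 and 0.10 on the log2 scale.

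TRAF4, a family member best known from epithelial tissue and development, was above background by both of its probe sets. Probe set 202871_at read 8.25 and 8.04 (8.15 ± 0.14), and 211899_s_at read 6.93 and 7.08 (7.01 ± 0.10). Their differences between the arrays had opposite signs, -0.20 and 0.15, so no common direction was seen. The range of 1.14 between the probe sets was narrower than the median of 1.73 for genes above background with 2 probe sets.

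TRAF5 works beside TRAF2 at lymphocyte receptors such as CD40 and CD27. Probe set 204352_at read 9.03 on both arrays (SD 0.00085). The second, 1569861_at, read 3.53 and 3.32 and lay at -2.46 and -2.62 from the background level of each array. A share of 6.13% of genes above background with 2 probe sets had a range wider than the 5.61 of TRAF5. The count of TRAF5 as above background therefore rests on 204352_at, although the mean of both probe sets (6.23) also exceeded the level computed from such means (5.74 and 5.72).

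TRAF6, the ubiquitin ligase shared by CD40, Toll-like receptors and the interleukin-1 receptor, read 7.81 and 7.86 (7.83 ± 0.03) by its 1 probe set. This was 1.82 and 1.92 above the background level of each array. The arrays differed by 0.05.

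BIRC2 encodes cIAP1, a ubiquitin ligase that TRAF2 brings to the receptor and to NIK. It read 10.63 in replicate 1 and 10.64 in replicate 2 (10.64 ± 0.0065). The difference was 0.0092, and 92.7% of the probe sets above background differed by more.

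MAP3K14 encodes NIK, whose activity is set mainly by degradation of the protein, which an array of messenger RNA does not read. It read 7.81 in replicate 1 and 7.66 in replicate 2 (7.74 ± 0.11), or 1.83 and 1.72 above background. The antisense gene MAP3K14-AS1, which has a probe set of its own, read 3.76 and 3.92 and was not above background.

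None of the 8 members had a log2 difference between the arrays over 0.58, a ratio of about 1.5, by its brightest probe set. Of 8620 genes that exceeded the level in at least 1 replicate, 51 did so (0.592%), and 3 differed by more than 1 (0.0348%). The median size of the difference was 0.05 over the members and 0.07 over all genes above background, and the largest among the members was 0.21, that of TRAF3. By sign, 4 members were higher in replicate 1 (TRAF1, TRAF3, TRAF4 and MAP3K14) and 4 in replicate 2 (CD40, TRAF5, TRAF6 and BIRC2). The largest differences, of TRAF3 (-0.21), TRAF4 (-0.20) and MAP3K14 (-0.15), were all lower in replicate 2, whereas TRAF5 and BIRC2 differed by only 0.0012 and 0.0092. Signs also depended on the probe sets. CD40 differed by -0.28 without _x_at and _s_at probe sets, and TRAF5 by -0.10 with the mean of all probe sets. No member passed 0.58 after a second quantile normalization (0.603% of genes), after a loess curve was removed (0.58%), with the mean of all probe sets (0.486%) or without _x_at and _s_at probe sets (1.03%).

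**Figure D2:**
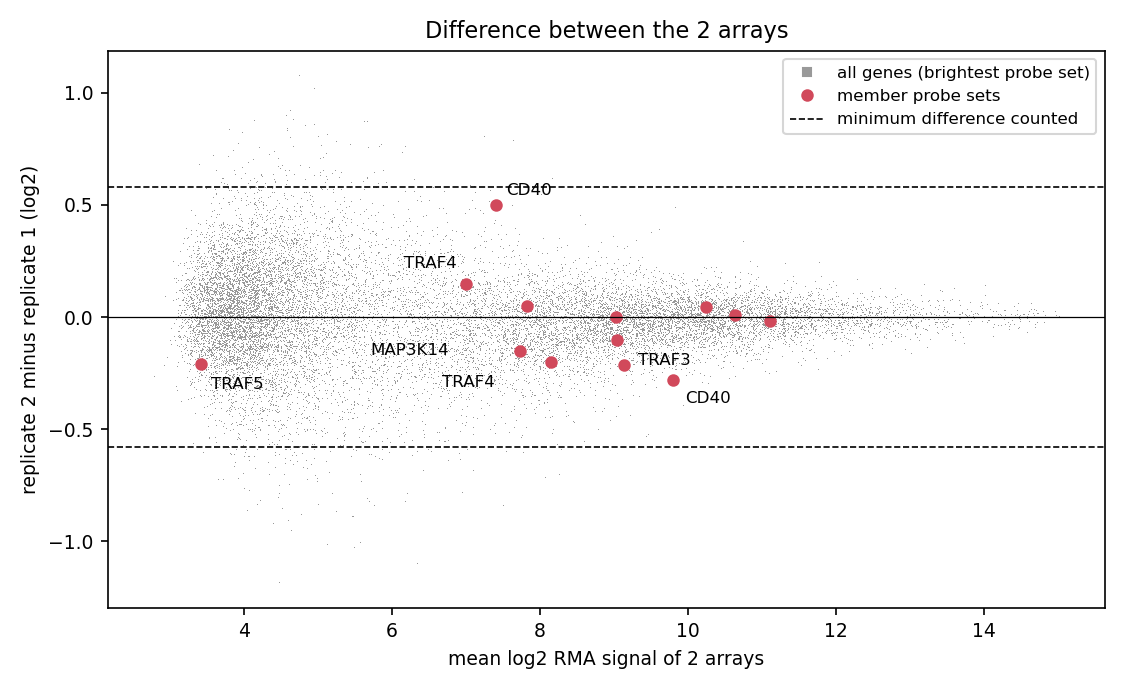
Difference between the arrays (replicate 2 minus replicate 1, log2, vertical axis) against mean log2 signal (horizontal axis) for all 16716 genes (grey) and the 13 member probe sets (red), with dashed lines at 0.58 either side of 0. No member probe set crosses a dashed line, and the 2 labelled CD40 lie on opposite sides of 0, at -0.28 and 0.50.

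RefSeq promoter windows of GRCh38.p14, running from 250 bases before a transcript start to 50 after it, were found for 9 of the 10 listed genes and for 7 of the 8 measured ones. They show the DNA around starts that RefSeq lists, and the arrays do not tell which start was used. TRAF1 and TRAF5 have 3 windows each and BIRC2 has 2. The windows were searched on both strands for 5 motifs, chosen after the windows had been seen: the kB motif bound by NF-kB, AP-1 (TGANTCA), CRE (TGACGTCA), the GC box (GGGCGG) and the TATA box (TATAAA). The lines below give, from the first listed window, bases from 250 before the start to 10 after it, 5′ to 3′ on the gene's strand, for TRAF1, whose transcript NF-kB is known to raise, and for the measured members with a kB or CRE match. Capitals mark a GC box in TRAF1 (here read on the opposite strand), the kB match in TRAF3 and the CRE match in BIRC2.
TRAF1 (chr9:120929162-120929421, minus strand): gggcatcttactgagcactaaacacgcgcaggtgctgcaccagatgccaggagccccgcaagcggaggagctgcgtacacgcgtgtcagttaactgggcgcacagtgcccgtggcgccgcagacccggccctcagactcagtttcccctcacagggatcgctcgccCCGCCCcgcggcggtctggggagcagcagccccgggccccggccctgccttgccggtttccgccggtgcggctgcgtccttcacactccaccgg
TRAF3 (chr14:102777199-102777458, plus strand): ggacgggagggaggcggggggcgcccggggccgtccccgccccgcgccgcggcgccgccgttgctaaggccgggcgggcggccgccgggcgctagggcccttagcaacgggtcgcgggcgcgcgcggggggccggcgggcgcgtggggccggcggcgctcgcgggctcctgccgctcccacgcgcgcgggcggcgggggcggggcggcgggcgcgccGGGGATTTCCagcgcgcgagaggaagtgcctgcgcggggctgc
BIRC2 (chr11:102346964-102347223, plus strand): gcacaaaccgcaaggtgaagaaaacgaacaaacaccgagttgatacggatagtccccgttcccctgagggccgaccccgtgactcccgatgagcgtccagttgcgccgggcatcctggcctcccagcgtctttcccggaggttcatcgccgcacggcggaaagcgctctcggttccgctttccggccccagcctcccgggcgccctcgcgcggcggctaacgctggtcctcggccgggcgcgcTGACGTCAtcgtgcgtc

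The kB match of TRAF3, GGGGATTTCC, began 33 bases before the start, and 5.91% of all 35116 windows held a kB match, or 6.55% of the first windows of genes above background. The promoter of BIRC3, which encodes cIAP2, held matches that begin 199 and 135 bases before the start, GGAAATCCCC and GGAGTTCCCC as read on the gene's strand, though its transcript was not analysed here. The kB motif was searched as 1 pattern of 10 bases: GGG, A or G, any base, A or T, C or T, C or T, then CC. No match lay in the TRAF1 windows, which says only that this pattern is not in them. The CRE match of BIRC2 began 7 bases before the start and ended on the first transcribed base, and 1.85% of all windows held a CRE match, or 3.62% of the first windows of genes above background. GC boxes were found in the first listed window of TRAF1 (1), TRAF2 (2), TRAF3 (6), TRAF4 (4), TRAF6 (1), BIRC2 (1) and MAP3K14 (4). They also lay in the second window of TRAF5 (3) and of BIRC2 (3), which overlaps its first. The transcript of TRAF2 was not analysed here. A GC box lay in 70.9% of the first windows of genes above background and in 47.8% of those of measured genes not above it. None of the member windows held an AP-1 or TATA box match, which 7.71% and 11.5% of all windows did, and 4.29% and 5.29% of the first windows of genes above background.

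**Figure D3:**
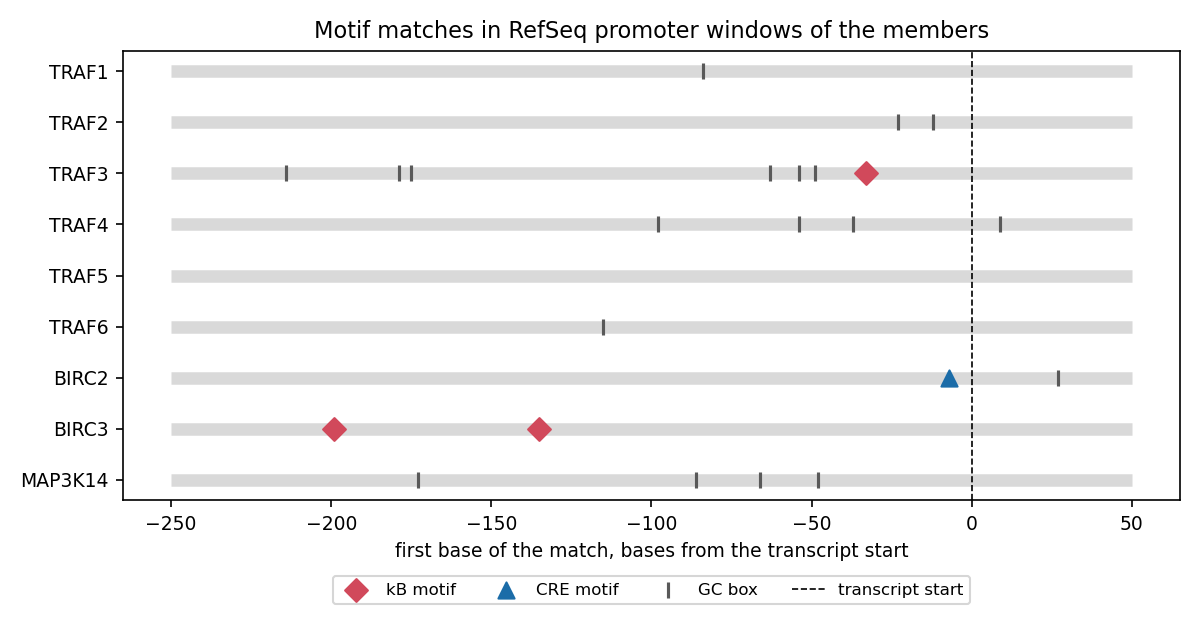
Position of motif matches (bases from the transcript start, horizontal axis) in the first listed RefSeq window of 9 genes on the list, with grey bars for the searched window. The kB matches (diamonds) lie in TRAF3 and BIRC3, the CRE match (triangle) at the start of BIRC2, and GC boxes (ticks) in 7 of the 9 first windows shown; TRAF2 and BIRC3 are drawn although their transcripts were not analysed here.

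Of the wider pathway, 7 lists by role held 103 distinct measured genes, and 83 of them were above background, against 50.2% of all genes. The lists were chosen with earlier results of these data known, so shares beside that of all genes are descriptions alone. The receptors that use TRAF adaptors had the lowest share of the 7 lists. Of 16 receptors 7 were above background, a share of 43.8% beside the 50.2% of all genes. CD40 was counted among the members and not here. Their median signal was 5.71. TNFRSF1B, the TNF receptor found mainly on immune cells, was above (7.68 ± 0.20). So were TNFRSF17 (11.76), CD27 (11.41), TNFRSF8 (9.04), TNFRSF14 (8.82), TNFRSF13B (8.72) and TNFRSF13C (6.26), whereas 9 of the 16 were not. The lymphotoxin receptor LTBR, which like CD40 signals through NIK, was not (4.25 and 4.21), nor by its second probe set. TNFRSF1A, the receptor for TNF on most tissues, read 5.75 and 5.47, and the costimulatory receptors TNFRSF4 (4.65 ± 0.19) and TNFRSF9 (4.82 ± 0.06) and the RANK receptor TNFRSF11A (4.55 ± 0.31) were also not above. At the 75th percentile 11 of 16 receptors exceeded it, where 62.4% of all genes did. Without probe sets ending in _x_at and _s_at 8 of 14 receptors were above background, against 45.6% of all genes. The receptors therefore did not lie below all genes in every setting.

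Of 11 measured ligands of these receptors 10 were above background (90.9%, against 50.2% of all genes), with a median of 8.49. They included the secreted and membrane lymphotoxins LTA (9.18 and 9.22) and LTB (8.53 and 8.62) and TNF (8.12 and 8.09). For LTB, 1 of 2 probe sets was above background. TNFSF8, the CD30 ligand, read 4.44 and 4.01 and was not above. The CD40 ligand gene CD40LG was not analysed here.

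Proteins that bind TRAFs or remove their ubiquitin marks were above background in 13 of 17 cases, with a median of 8.94. This was 76.5%, against 50.2% of all genes. TANK, a binding partner of several TRAFs, read 11.35 and 11.41, and all 3 of its probe sets were above. TRAF3IP3, a TRAF3 partner of lymphocytes, read 11.61 and 11.67, again with 3 of 3 probe sets. TRAF3IP2, the adaptor of the interleukin-17 receptor, read 8.50 on both arrays by the brighter of 2 probe sets, of which 1 was above. The members not above were TRAF3IP1 (4.43 ± 0.09), TRAIP (5.60 ± 0.02), OTUD7B, a deubiquitinase of TRAF3 (4.59 ± 0.12), and TBKBP1 (4.43 ± 0.02).

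Downstream kinases and ubiquitin enzymes were above background in 16 of 19 cases (84.2%, against 50.2% of all genes), with a median of 8.86. MAP3K7, the kinase TAK1 that TRAF6 activates, read 9.27 and 9.31, with 4 of 4 probe sets above. Its partner TAB2, which binds ubiquitin chains, read 9.27 and 9.42, with 2 of 3 probe sets above. Its other partners TAB1 (5.28 and 5.17) and TAB3 (4.99 and 5.16) were not above, and neither was RNF31, the catalytic subunit of the linear ubiquitin ligase (4.84 and 4.56). All 8 NF-kB subunits and inhibitors were above, against 50.2% of all genes, with a median of 9.16. Among them were NFKB2 (9.60 ± 0.06) and RELB (6.40 ± 0.17), the pair that the non-canonical pathway releases, and NFKB1 (10.76 ± 0.01). RELB lay 0.53 and 0.34 above the level. For NFKB2, 1 of 3 probe sets was above background.

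The list of inhibitors of apoptosis (IAPs), their antagonists and other apoptosis genes had 10 of 12 above background, with a median of 9.62. That share was 83.3%, against 50.2% of all genes. By role, these were 3 of 5 relatives of BIRC2, both IAP antagonists (DIABLO and HTRA2) and 5 of 5 caspases and death receptor proteins (CASP8, CASP9, CFLAR, FADD and TRADD). XIAP, which blocks caspases directly, read 8.87 and 8.76, with 2 of 4 probe sets above. The mitotic family member BIRC5, or survivin, read 10.15 and 10.06, and the very large BIRC6 read 9.97 and 9.80. NAIP (4.15 and 4.11) and BIRC7 (3.96 and 4.05) were not above background.

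Genes that CD40 stimulation is known to raise in B cells were above background in 21 of 22 cases, with a median of 10.35. This was 95.5%, against 50.2% of all genes. The chemokine CCL22 read 9.25 and 8.85, the adhesion molecule ICAM1 9.41 and 9.44, and the costimulatory ligand CD80 10.07 and 10.01. The remaining gene, the chemokine CCL17, read 5.99 and 5.77 and exceeded the level in replicate 1 alone, by less than 0.01. By its brightest probe set, none of the 103 pathway genes differed between the arrays by more than 0.58. Of the 8620 genes above the level on at least 1 array 0.592% did, while the 103 also include genes below it on both. The pathway genes had 157 probe sets above the level on at least 1 array. Of these 2 differed by more than 0.58 (1.27%), against 0.673% of such probe sets over all genes. These were 211153_s_at of TNFSF11 (0.65) and 221905_at of CYLD (-0.71), named after their values were seen. At the 99th percentile 24 of the 103 were above background, against 10.9% of all genes. At the 99th percentile without MBP and KRT10, 81 of 103 were, against 47.5%, and TNFRSF13C and RELB no longer were, which left 6 of 16 receptors and 7 of 8 NF-kB genes. Without probe sets ending in _x_at and _s_at 55 of 76 were above background, against 45.6% of all genes.

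**Figure D4:**
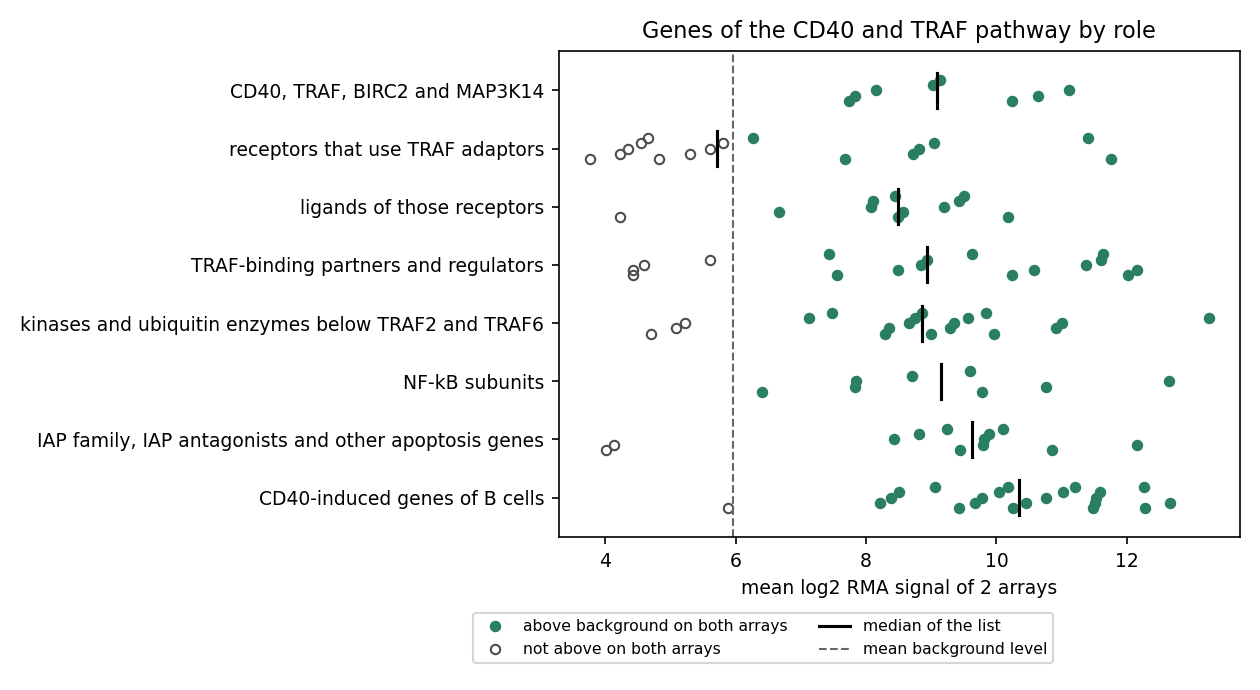
Mean log2 RMA signal of the 2 arrays (horizontal axis) for each measured gene of the members and the 7 pathway lists, filled where above background on both arrays, with the median of each list as a black bar and the mean background level as a dashed line. The receptors that use TRAF adaptors are the list with most open circles, 9 of 16, and their median of 5.71 lies left of the line.

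The series accompanies chromosome contact maps, and the closest measured genes before and after each member, in order of start position, were read as well. They need not be adjacent: the gene table lists 12 genes between TRAF3 and TECPR2 and 5 between BIRC2 and YAP1. Of the 32 genes that were the 2 nearest measured ones on each side of a member, 20 (62.5%) were above background, against 50.2% of all genes. By member the count ran from 1 to 4 of 4. Counts of 4 genes are small, and a difference between members was not tested. All 4 neighbours of TRAF4 on chromosome 17 were above background: the ribosomal protein gene RPL23A, NEK8, FAM222B and ERAL1. For TRAF6 on chromosome 11 it was COMMD9 (8.89 ± 0.14) alone, while PRR5L (5.30 ± 0.01) and the recombinase genes RAG1 (3.67 and 3.80) and RAG2 (3.25 and 3.18), which act in immature lymphocytes, were not above.

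BIRC2, also on chromosome 11, had 1 neighbour of 4 above background, TMEM123 (11.29 and 11.30). YAP1 (3.95 ± 0.17), CFAP300 (3.53 ± 0.02) and the metalloproteinase gene MMP7 (4.70 ± 0.36) were not. BIRC3 lies between YAP1 and BIRC2 and was passed over because it was not analysed here. TRAF1 on chromosome 9 lay between PHF19, a Polycomb-associated gene (8.62 and 8.49), and the complement gene C5, which was not above (5.01 in replicate 2 and an SD of 0.0072). CUTALP (7.76 ± 0.14) and CNTRL (8.08 and 7.93), the next measured genes out, were above.

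CD40 on chromosome 20 had NCOA5 (7.59 ± 0.12) and SLC35H1 (9.18 ± 0.02) above background and the neuronal transporter gene SLC12A5 (4.06 ± 0.25) and the cadherin gene CDH22 (5.40 ± 0.02) not above. Around TRAF3 on chromosome 14, TECPR2, RCOR1 and TNFAIP2 were above and CDC42BPB (5.04 ± 0.11) was not. TRAF5 on chromosome 1 had RCOR3, LINC00467 and SLC30A1 above, whereas the potassium channel gene KCNH1 (3.80 ± 0.12) was not. Beside MAP3K14 on chromosome 17, SPATA32, ARHGAP27 and PLEKHM1 were above and MAP3K14-AS1 was not.

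**Figure D5:**
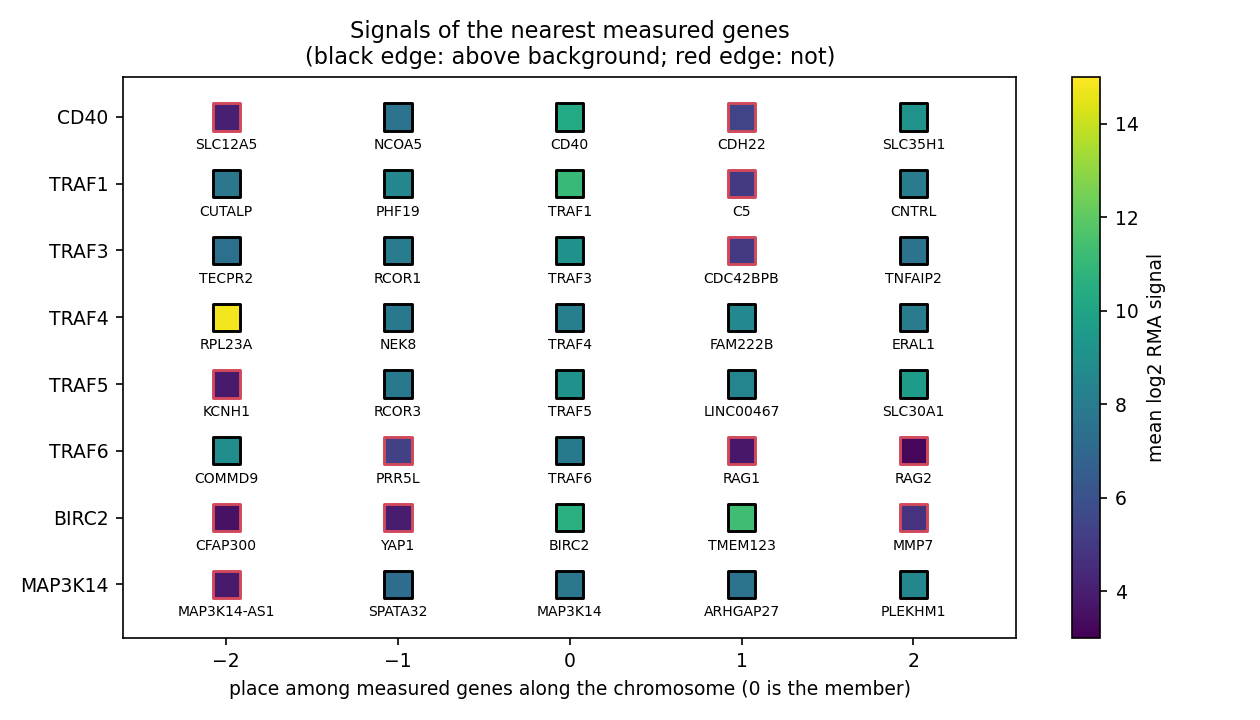
Mean log2 RMA signal (colour) of each measured member (place 0) and the 2 nearest measured genes on either side in chromosome order (horizontal axis), with black edges for genes above background and red edges for the others. TRAF4 has 4 of 4 neighbours above background, and TRAF6 and BIRC2 have 1 of 4 each. These counts are small, and their difference was not tested.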

How the data were processed

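Total RNA from 2 samples of 1 group was hybridised to 1 Affymetrix U133 Plus 2.0 array each, per the labels' protocols. The authors deposited probe set intensities on a linear scale (6.29 to 33093), made with RMA per the submitters' processing notes; the RMA version and a genome build are not given in the sources used here. This step sets both arrays to nearly the same distribution (median intensity 33.2 and 33.3), so a change in total RNA per cell cannot be seen, and it gives no detection call. The number of arrays limits the precision.

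Log2 was taken here. Gene symbols came from the annotation of the array platform and were brought up to date through Entrez IDs and a RefSeq gene table (GRCh38.p14): 29493 probe sets had 1 symbol (29461 matched), 1407 several and 5389 none. The gene table also gave the order of genes, by start position on each chromosome and not by distance between genes. The background level is the 95th percentile of 75 measured of 90 tissue-restricted genes; about 5% of these lie above it by construction. Genes were named by rule: all members, the first 3 measured genes of each list, up to 5 genes per list not above background, and the neighbours. Others were named outside this rule with the values known. They include CYLD, TNFSF11, further receptors above background, the IAP antagonists, caspases and death receptor proteins, and genes of the ligand and receptor pairs. The members and lists were chosen with earlier results of these data known. Alternatives were the 75th and 99th percentiles, either array alone, the mean of all probe sets, no _x_at or _s_at probe sets, a second quantile normalization and a loess correction (statsmodels 0.14.6). Scripts (Python 3.11.15, pandas 2.3.3) were tested on simulated data. No test between groups was run, and the transcripts of TRAF2 and BIRC3 were not analysed here.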

Additional observations from a re-analysis of the deposited data

How the results depend on the processing

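The count of members above background was 8 of 8 at the 75th percentile, with either array alone, with the mean of all probe sets and without _x_at and _s_at probe sets. At the 99th percentile 2 members and 2 of their 13 probe sets were above background, with 24 of 103 pathway genes and 2 of 32 neighbouring genes, against 10.9% of all genes; 2 bright reference genes, KRT10 and MBP, set that level. Without _x_at and _s_at probe sets 55 of 76 pathway genes were above, beside 83 of 103 with all probe sets and 45.6% of all genes in that setting. Fewer genes could be read, and some still read were no longer above. There 4 of 5 NF-kB genes, 4 of 6 of the IAP list, 8 of 12 kinases and ubiquitin enzymes and 6 of 8 ligands were above. So were 8 of 14 receptors, 9 of 15 TRAF-binding partners and regulators and 18 of 18 CD40-induced genes. The share of receptors was thus above that of all genes in this setting, whereas with all probe sets it was below. No member differed by more than 0.58 under a second quantile normalization, a loess correction, the mean of all probe sets or without _x_at and _s_at probe sets, or by more than 1. Averaged over their probe sets, the signals of CD40, TRAF4 and TRAF5 were 9.15, 7.58 and 6.23. The reference list of the earlier analysis was not used here, so that alternative was not run. No paired analysis was possible because there is 1 group. The number of arrays and the lack of a detection call limit what can be said of signals near the level.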

Other observations

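Ligands of the TNF family and their receptors were set side by side in 17 known pairs with both genes measured, listed from general knowledge after the values had been seen. In 9 pairs both genes were above background, in 7 the ligand alone and in 1 the receptor alone. Taken singly, 10 of 11 measured ligands and 7 of 16 receptors were above, against 50.2% of all genes. Genes such as TNFSF13B stand in several pairs, so the 17 pairs are not separate observations. The pairs with both above include CD70 (10.18) and CD27 (11.41), and TNFSF13B, which encodes the B-cell survival factor BAFF (9.43), with TNFRSF13B (8.72), TNFRSF13C (6.26, or 0.27 and 0.32 above the level) and TNFRSF17 (11.76). The pairs with the ligand alone include TNFSF4 and TNFRSF4, TNFSF9 and TNFRSF9, LTB and LTBR, and TNFSF11 and TNFRSF11A. In the pair of TNFSF8 and TNFRSF8 the receptor (9.04), known as CD30, was the gene above background.

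TNFSF11, which encodes the bone-resorption ligand RANKL, was above background by both of its probe sets, which differed between the arrays in opposite directions: 210643_at read 8.68 and 8.21, and 211153_s_at read 6.14 and 6.80. SPATA32, named for spermatogenesis, stands beside MAP3K14 among measured genes ordered by start position. It was above background by 1 of 2 probe sets (7.08 and 7.42, against 3.80 on both arrays for the other).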
